A study of Mus musculus with 15 samples.

Results

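Integrins are adhesion receptors made of 1 alpha and 1 beta chain, and only the assembled pair reaches the cell surface. The pair decides the ligand: beta2 pairs bind intercellular adhesion molecules and complement on leukocytes, alpha4 pairs bind VCAM-1, fibronectin or the mucosal addressin MAdCAM-1, and alphav pairs bind RGD-containing matrix proteins and latent TGF-beta. In the gut, alpha4beta7 is known as the homing receptor of leukocytes that enter the mucosa, and CD11b (Itgam) and CD11c (Itgax) are the usual surface markers of mononuclear phagocytes.

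Transcripts of 10 integrin subunits were examined: Itga4, Itgb7, Itgal, Itgam, Itgax, Itgb2, Itgb1, Itga6, Itgav and Itgb5. They were chosen by name and matched by Ensembl identifier to the 19456 genes of the counts, and all 10 were found and tested. Of the 26 mouse integrin subunit genes, these 10 and 15 of the other 16 were in the counts, the exception being Itgb6.

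The study sorted Ly6Chi monocytes from peripheral blood (3 libraries) and 3 macrophage populations from the small intestine (4 libraries each), named by the surface proteins Tim-4 and CD4 as Tim-4-CD4-, then Tim-4-CD4+, then Tim-4+CD4+ (the macrophage order in what follows). All donors were adult male wild-type C57BL/6 mice with no treatment and no transgene, and each library pooled 3 mice, except for 1 monocyte library that pooled 4. Gut macrophages were taken as live, lineage-negative, CD45+, CD11b+, CD64+ and MHCII+ cells after enzymatic digestion, with Ly6C in the lineage channel and no gate on CD11c, whereas blood was not digested. CD11b protein was therefore part of the macrophage gate, and digestion, tissue and cell type cannot be told apart in any comparison with monocytes.

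Total counts were 39388763 to 151510641 per library (median 63249039), and levels are given as CPM, the count relative to the library size as scaled by edgeR. For all 10 members the spread between libraries was wider than counting error. Sorting genes followed the labels: Timd4 averaged 355 CPM in Tim-4+CD4+ macrophages against 1.11 and 1.70 CPM in the populations before it in this order, and Cd4 averaged 22.9, 530.5 and 816 CPM along the macrophage order. All 6 macrophage markers were detected in every population and their summed level was 19550 to 24752 CPM in the macrophage libraries against 3374 to 3695 CPM in monocytes. H2-Ab1 and Csf1r had the most reads of the 6 (11238138 and 5839066 over all libraries). The MHCII and CD64 proteins, which H2-Ab1 and Fcgr1 of this list encode, were part of the macrophage gate. T cell markers summed to at most 9.56 CPM and B cell markers to at most 9.81 CPM in any library, while the plasma cell list reached 196 to 390 CPM in macrophage libraries, nearly all of it Jchain (means of 297, 292 and 280 CPM). In bulk libraries, fewer cells that carry a transcript and less of it per cell cannot be told apart. The study names independent sorts for the macrophages, each from pooled mice. Neither it nor the labels say which libraries of different populations came from the same sort or mice. The main fit has no block and so takes these libraries as independent, and p-values measure the spread between pools.

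Monocytes and gut macrophages carried different sets of integrin transcripts. Genes were set against each other per kilobase of exon, counted over all annotated exons of a gene. This length can exceed that of the transcript expressed, so the order of genes and their shares are approximate. On this scale Itgb2 led in monocytes at 563 ± 39.7 CPM per kilobase (SD, n = 3). Itgb7 at 247 ± 59.8, Itgal at 184 ± 18.4, Itgb1 at 109 ± 6.24 and Itga4 at 105 ± 11.4 came after it. In Tim-4+CD4+ macrophages the order was Itgax at 223 ± 17.6 (SD, n = 4), Itgb5 at 223 ± 24.3, Itgb2 at 165 ± 5.45 and Itgb1 at 81.3 ± 9.92, with Itgb7 at 5.20 ± 0.94. Itgax, at 3.45 ± 0.27 CPM per kilobase the lowest of the 10 in monocytes after Itga6, was thus level with Itgb5 at the top of the Tim-4+CD4+ order.

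**Figure D1:**
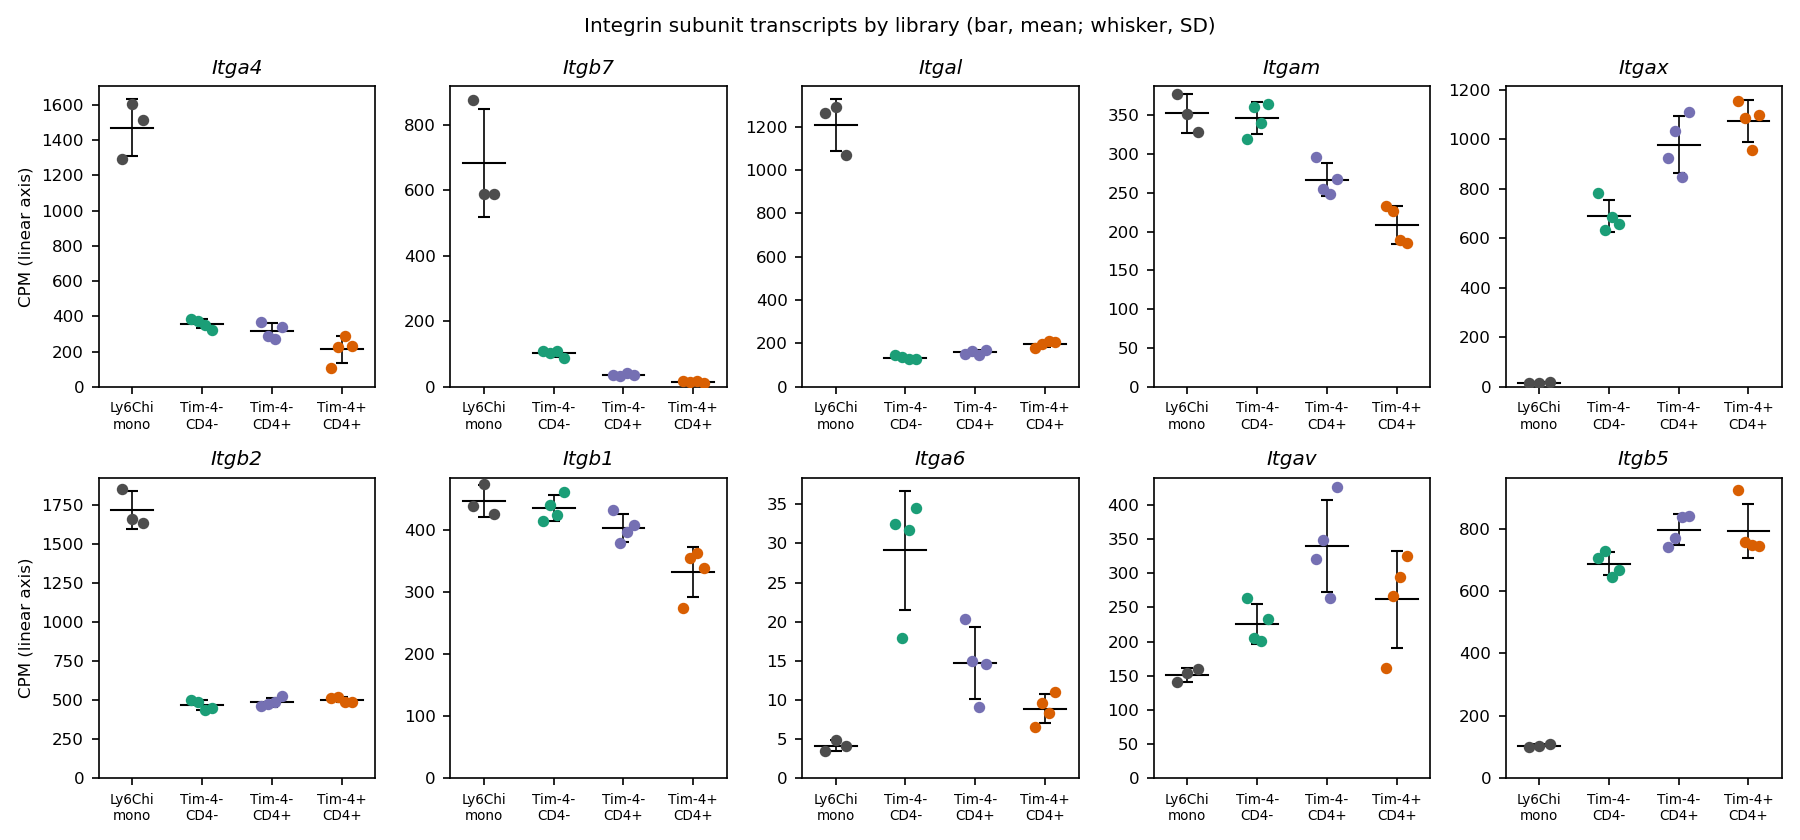
CPM of the 10 integrin subunits on a linear axis from 0, with 1 point for each library (3 monocyte, 4 of each macrophage population), the mean as a bar and the SD as whiskers. Itga4, Itgb7, Itgal and Itgb2 are highest in monocytes, Itgax and Itgb5 in the macrophages, and Itgb7 and Itgam step down along the macrophage order.

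Against monocytes, 8 of the 10 subunits passed edgeR's threshold (adjusted p under 0.05) in the Tim-4-CD4- population (4 higher, 4 lower), where 65.4% of the 15802 genes tested passed (37.3% higher and 28.1% lower). In the Tim-4-CD4+ population 9 passed (4 higher, 5 lower) against 69.8% of all genes (39.1% higher and 30.7% lower). In the Tim-4+CD4+ population all 10 passed (4 higher, 6 lower) against 70.9% of all genes (39.5% higher and 31.3% lower). With so large a background, these counts say little about integrins as a group, and the sizes carry the description. The median absolute log2 fold change of the 10 was 2.38, 2.02 and 2.19 in the 3 comparisons, against 0.75, 0.86 and 0.89 over all genes tested. The members were chosen with earlier results of these data known, so these medians are a description and not a test.

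Between macrophage populations the background was smaller. Tim-4-CD4+ differed from Tim-4-CD4- macrophages in 5 of the 10 subunits (2 higher, 3 lower), where 10.1% of all genes passed (4.52% higher, 5.53% lower). Tim-4+CD4+ differed from Tim-4-CD4+ macrophages in 3 subunits (1 higher, 2 lower) against 3.41% of all genes (2.07% higher, 1.34% lower), and from Tim-4-CD4- macrophages in 7 (2 higher, 5 lower) against 23.1% (11.3% higher, 11.9% lower). The count of 3 fell to 1, Itgb7, with no filter on low counts, under either replicate block, with only the 2 populations fitted, and without Tim-4-CD4- replicate 4, Tim-4-CD4+ replicate 1, 2 or 4 or Tim-4+CD4+ replicate 2, 3 or 4. The count of 5 fell to 3 without Tim-4-CD4- replicate 2 or 4 or Tim-4-CD4+ replicate 2 or 4. The comparisons share libraries and are not independent of each other. The median log2 fold change of the members was -0.03, -0.32 and -0.14 in these comparisons, where that of all genes was -0.0029, -0.0019 and -0.0047.

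**Figure D2:**
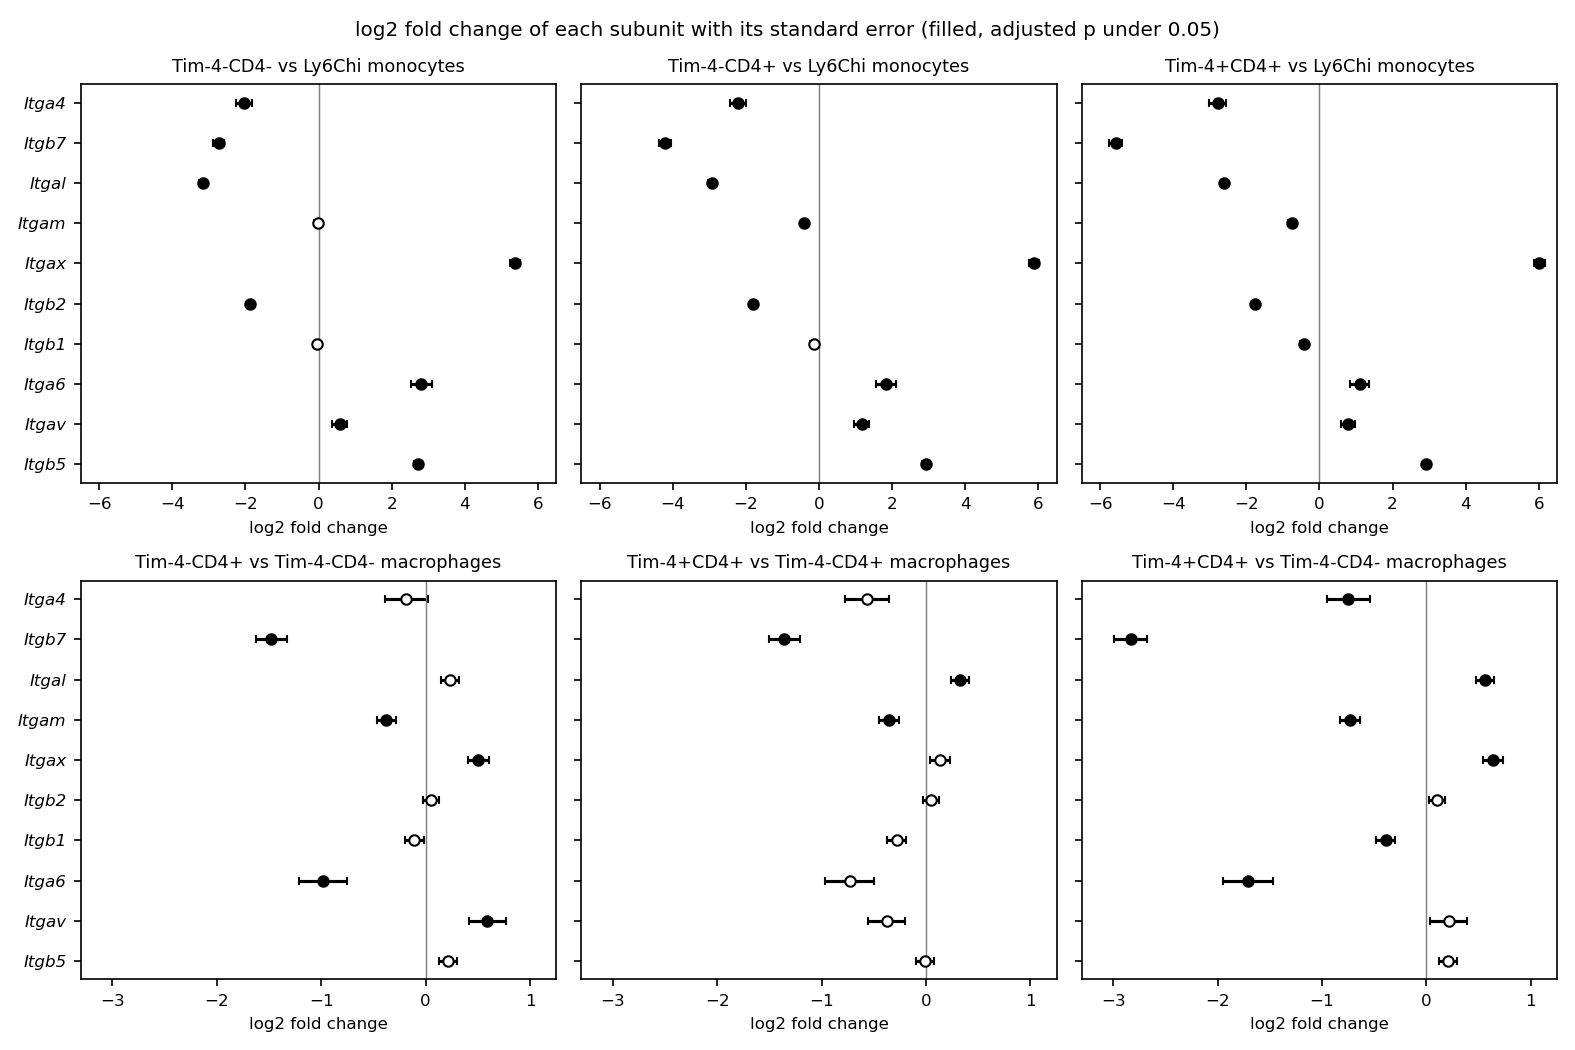
log2 fold change of each subunit with its standard error in the 3 comparisons with monocytes (upper row) and the 3 between macrophage populations (lower row). Filled points passed an edgeR adjusted p under 0.05; Itgb7 is the only subunit filled on the same side in all 6 panels.

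Itgb7 encodes the beta chain of alpha4beta7 and of the CD103 pair. Its level was 876, 591 and 588 CPM in the monocyte libraries, 110, 102, 111 and 88.5 CPM in Tim-4-CD4-, 37.0, 32.9, 41.3 and 36.2 CPM in Tim-4-CD4+, and 16.6, 13.8, 16.3 and 10.98 CPM in Tim-4+CD4+ macrophages. No 2 populations overlapped, and the order was the same at every step. Tim-4-CD4- macrophages were 6.66-fold below monocytes in mean CPM (log2 fold change -2.74 ± 0.16 SE, edgeR adjusted p = 1.8e-10). Tim-4-CD4+ were a further 2.79-fold below Tim-4-CD4- (-1.48 ± 0.15, adjusted p = 7.0e-06), and Tim-4+CD4+ 2.56-fold below Tim-4-CD4+ (-1.36 ± 0.15, adjusted p = 2.7e-05). From monocytes to Tim-4+CD4+ macrophages the difference reached 47.5-fold (-5.57 ± 0.18, adjusted p = 5.8e-14). All these calls held in each of the 21 alternative settings.

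The gene lies on the minus strand of chromosome 15 (15:102215995-102231944, GRCm38) and shares no exon bases with another annotated gene. The genes whose log2 CPM followed that of Itgb7 most closely over the 12 macrophage libraries, among 8229 genes, were Arhgef10l, Nr4a2 and Olfm1, each with Pearson's r of 0.99; this is a description, since the libraries fall into 3 populations.

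Of the monocyte markers given here, Ccr2 stepped down along the same order. Ccr2, a chemokine receptor of monocytes that recently arrived macrophages also carry, averaged 2630 ± 341 CPM in monocytes and then 660 ± 106, 84.1 ± 21.6 and 8.39 ± 5.04 CPM along the macrophage order. Ly6c2, which encodes the Ly6C of the monocyte sort, averaged 1092 ± 395 CPM in monocytes and 1.72 ± 0.29, 1.35 ± 1.44 and 0.73 ± 0.22 CPM in the macrophages. These macrophage levels are too low and variable to show an order. Pecam1, an adhesion molecule of endothelium and leukocytes, moved the opposite way (15.01, 104, 185 and 305 CPM from monocytes to Tim-4+CD4+) and carried the 4-gene endothelial and mesenchymal list, at 127 to 134, 193 to 231 and 309 to 382 CPM along the macrophage order. The dendritic cell list (Flt3, Zbtb46, Xcr1 and Itgae) summed to 22.3 to 33.9 CPM in monocytes and to at most 9.20 CPM in every CD4+ library. It summed to 50.8 CPM in Tim-4-CD4- replicate 3, of which Itgae gave 24.7 CPM. In the endothelial and mesenchymal list, Col1a1 and Pdgfra were hardly detected in monocytes and were detected in each macrophage population. The epithelium list summed to at most 0.12 CPM in monocytes and to 7.68 to 20.3 CPM in macrophage libraries. The part of other cells in the differences of integrins and of their ligands was not tested.

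Itga4 encodes the alpha4 chain, which pairs with beta7 or beta1. It stood at 1295, 1606 and 1513 CPM in monocytes, 387, 371, 353 and 325 CPM in Tim-4-CD4-, 369, 288, 269 and 338 CPM in Tim-4-CD4+, and 106, 226, 289 and 233 CPM in Tim-4+CD4+ macrophages. Every macrophage library was below every monocyte library, and neighbouring macrophage populations overlapped. The fall from monocytes was 4.10-fold in Tim-4-CD4- (-2.03 ± 0.22, edgeR adjusted p = 5.9e-07) and 6.88-fold in Tim-4+CD4+ macrophages (-2.78 ± 0.23, adjusted p = 1.2e-08). Of the macrophage comparisons, Tim-4+CD4+ against Tim-4-CD4- passed (-0.75 ± 0.21, adjusted p = 0.015). The lowest library, Tim-4+CD4+ replicate 1, moved that value to -0.52 when left out, and the call was kept. Of 13978 exon bases, 1124 lie opposite the annotated gene Cerkl, itself at 1.78 to 3.56 CPM.

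Relative to each other, the alpha4 partners diverged. Itga4 gave 2.18 reads per Itgb7 read in monocytes, and 3.50, 8.53 and 14.1 along the macrophage order (geometric means of the within-library ratio, not corrected for length). Itgb7 itself gave 1.51 reads per Itgb1 read in monocytes, and 0.24, 0.09 and 0.04 along the macrophage order. Both ratios separated the 12 macrophage libraries by population in 5 of the 6 subset comparisons, the exception being Itga4:Itgb7 in Tim-4+CD4+ against Tim-4-CD4+ (two-sided exact permutation test, p = 0.143).

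Itgb1 encodes the beta1 chain, the partner of most matrix-binding alpha chains. It varied little: 438, 474 and 424 CPM in monocytes, 415, 439, 424 and 461 CPM in Tim-4-CD4-, 432, 378, 396 and 407 CPM in Tim-4-CD4+, and 273, 355, 362 and 338 CPM in Tim-4+CD4+ macrophages. The Tim-4+CD4+ libraries lay below all libraries of the other populations. The log2 fold change against Tim-4-CD4+ was -0.28 (edgeR adjusted p = 0.12). It did not pass in the main fit or in any of the 21 alternatives. Against Tim-4-CD4- the difference was 1.31-fold (-0.39 ± 0.09, edgeR adjusted p = 0.0046) and against monocytes 1.34-fold (-0.42 ± 0.10, adjusted p = 0.00091). Against monocytes, its log2 fold change was -0.04 ± 0.10 for Tim-4-CD4- (adjusted p = 0.77) and -0.14 ± 0.10 for Tim-4-CD4+ macrophages (adjusted p = 0.20).

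The beta2 chain, Itgb2 (CD18), pairs with Itgal, Itgam, Itgax and Itgad. Itgb2 was at 1858, 1664 and 1635 CPM in monocytes and between 439 and 527 CPM in all 12 macrophage libraries. The macrophages were 3.66-, 3.52- and 3.41-fold below monocytes (adjusted p at most 7.3e-12 in edgeR). Among macrophages its log2 fold changes were 0.06, 0.04 and 0.10, each ± 0.08, and none passed.

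Itgal, the alpha chain of LFA-1, which binds ICAM-1 on other leukocytes and endothelium, fell with it. It was at 1261, 1290 and 1067 CPM in monocytes, 145, 137, 126 and 130 CPM in Tim-4-CD4-, 151.7, 166, 147 and 168 CPM in Tim-4-CD4+, and 180.5, 196, 212 and 206 CPM in Tim-4+CD4+ macrophages. Macrophages were 8.94-, 7.62- and 6.06-fold below monocytes (edgeR adjusted p at most 2.9e-13). Within the gut the order was reversed: no populations overlapped, and Tim-4+CD4+ macrophages were 1.47-fold above Tim-4-CD4- (0.56 ± 0.09, adjusted p = 0.00016). The first step was 0.23 ± 0.09 (adjusted p = 0.11) and passed in 2 of the 21 alternatives, DESeq2 and the fit of only the 2 populations (adjusted p down to 0.032). The second was 0.33 ± 0.09 (adjusted p = 0.046) and missed the threshold in 12 of the 21 alternatives: without Tim-4-CD4- replicate 4, any Tim-4-CD4+ library or Tim-4+CD4+ replicate 2, 3 or 4, and in 4 other settings (log2 fold change over all settings 0.31 to 0.38, adjusted p up to 0.13).

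Itgam, the alpha chain of Mac-1 (CD11b), a receptor for complement fragment iC3b and fibrinogen, went the other way. It was at 378, 352 and 328 CPM in monocytes, 320, 361, 340 and 364 CPM in Tim-4-CD4-, 296, 255, 249 and 268 CPM in Tim-4-CD4+, and 233, 227, 190 and 185 CPM in Tim-4+CD4+ macrophages. Monocytes and Tim-4-CD4- overlapped, and the CD4+ populations lay below both and apart from each other. Tim-4+CD4+ macrophages were 1.66-fold below Tim-4-CD4- (-0.73 ± 0.09, edgeR adjusted p = 2.6e-05) and 1.69-fold below monocytes (-0.76 ± 0.10, adjusted p = 4.3e-06). The first step, Tim-4-CD4+ against Tim-4-CD4-, was -0.37 ± 0.09 (adjusted p = 0.017) and was lost without Tim-4-CD4- replicate 2 or 4 or Tim-4-CD4+ replicate 2, 3 or 4 (-0.43 to -0.34 over all settings, adjusted p up to 0.066). The second step, -0.36 ± 0.09 (adjusted p = 0.048), was lost in 18 of 21 alternatives, among them the omission of any library other than Tim-4+CD4+ replicate 1 (-0.41 to -0.29 over all settings, adjusted p up to 0.21). Of its 5024 exon bases, 3450 are shared on the same strand with the annotated gene Gm49368, itself at 0.35 to 2.05 CPM, and how reads in these bases were assigned is not given in the sources used here, so its level is uncertain to that extent.

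Itgax, the alpha chain of the CD11c pair, another complement receptor, gave the widest difference of the 10. It was at 15.8, 15.9 and 18.04 CPM in monocytes, 782, 632, 687 and 659 CPM in Tim-4-CD4-, 924, 1034, 846 and 1108 CPM in Tim-4-CD4+, and 1156, 1085, 955 and 1097 CPM in Tim-4+CD4+ macrophages. Every macrophage library was above every monocyte library, and Tim-4-CD4- lay below both CD4+ populations, which overlapped. The rise over monocytes was 41.6-, 59.0- and 64.8-fold (log2 fold change 5.38 ± 0.14, 5.88 ± 0.14 and 6.02 ± 0.14, edgeR adjusted p at most 5.4e-15). Tim-4-CD4+ were 1.42-fold above Tim-4-CD4- macrophages (0.50 ± 0.10, adjusted p = 0.0033), and Tim-4+CD4+ 1.56-fold above them (0.64 ± 0.10, adjusted p = 0.00018). The step between the CD4+ populations was 0.13 ± 0.10 (adjusted p = 0.56).

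Itgal, Itgam, Itgax and Itgad lie in this order on the plus strand of chromosome 7 in GRCm38: Itgal at 7:127296260-127335138, Itgam at 7:128062640-128118491 and Itgax at 7:128129547-128150657. Only 11.1 kb separate the annotated end of Itgam from the start of Itgax, and 3.7 kb separate Itgax from Itgad, which stayed under 1 CPM on average in each population. The adjacent genes Itgam and Itgax thus differed in opposite directions in Tim-4+CD4+ against Tim-4-CD4- macrophages.

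Upstream sequence is shown for Itgb7, which fell at every step, for the neighbours Itgam and Itgax, and for Itgb5, which was high in all macrophages. RefSeq promoters (GRCm38.p6) were held for 7 of the 10 members; the 240 bases from 250 to 11 before each start were read 5′ to 3′ on the gene's strand. Capitals mark matches on either strand to 3 words, the PU.1 core GAGGAA, the RUNX core TGTGGT and the Sp1 core GGGCGG.
Itgb7 (chr15:102231946-102232185, minus strand): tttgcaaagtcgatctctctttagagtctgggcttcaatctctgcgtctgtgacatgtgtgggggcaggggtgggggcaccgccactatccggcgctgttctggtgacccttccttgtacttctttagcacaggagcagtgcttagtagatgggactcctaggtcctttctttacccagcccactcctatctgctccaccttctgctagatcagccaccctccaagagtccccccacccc
Itgam (chr7:128062390-128062629, plus strand): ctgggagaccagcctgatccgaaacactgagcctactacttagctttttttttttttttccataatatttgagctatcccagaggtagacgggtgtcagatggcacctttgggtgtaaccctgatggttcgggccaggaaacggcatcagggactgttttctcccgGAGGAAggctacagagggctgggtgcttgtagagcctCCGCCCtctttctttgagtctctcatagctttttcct
Itgax (chr7:128129300-128129539, plus strand): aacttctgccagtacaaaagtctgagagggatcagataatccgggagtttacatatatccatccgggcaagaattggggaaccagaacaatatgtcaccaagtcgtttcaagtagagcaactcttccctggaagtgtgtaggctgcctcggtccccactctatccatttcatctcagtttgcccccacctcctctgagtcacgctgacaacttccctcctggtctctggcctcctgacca
Itgb5 (chr16:33829415-33829654, plus strand): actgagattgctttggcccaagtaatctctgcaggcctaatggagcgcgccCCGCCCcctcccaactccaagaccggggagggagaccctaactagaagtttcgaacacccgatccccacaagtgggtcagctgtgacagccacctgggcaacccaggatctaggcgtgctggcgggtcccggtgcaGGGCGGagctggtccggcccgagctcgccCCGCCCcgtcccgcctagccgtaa

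Itgam held 1 PU.1 word, 84 bases before the start, and 1 Sp1 word, 47 bases before it; Itgb5 held 3 Sp1 words and Itgb7 and Itgax none of the 3. Over all 32851 promoters of the same window, 22.3% held the PU.1 word, 13.6% the RUNX word and 31.3% the Sp1 word, against 2, 1 and 4 of the 7 members. Matches are a description of the letters and not of binding.

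The make-up of the beta2 partners changed accordingly. As a share of the summed CPM per kilobase of Itgal, Itgam, Itgax and Itgad, Itgal made up 71.3% ± 1.34 (SD, n = 3) in monocytes and 8.81% ± 0.40, 8.59% ± 0.34 and 10.3% ± 1.37 (n = 4 each) along the macrophage order. Itgax rose from 1.35% ± 0.23 in monocytes to 61.5% ± 3.02, 72.3% ± 2.17 and 75.6% ± 1.39. Itgam took 27.3% ± 1.18 in monocytes, then 29.6% ± 2.94, 19.0% ± 2.06 and 14.04% ± 1.17 along the macrophage order. The shares use all 5024 exon bases of Itgam, of which 3450 are shared with Gm49368. All parts of this sum are uncertain to that extent. Within libraries, Itgax gave 1.99, 3.65 and 5.16 reads per Itgam read along the macrophage order, and the 3 populations were apart in every pair (two-sided exact permutation test, p = 0.029 each, the smallest that 4 against 4 allows). Itgal gave 0.39, 0.59 and 0.96 reads per Itgam read, again apart in every pair (exact permutation p = 0.029 each). Of the 18 tests over 6 ratios, 15 reached that smallest p, which is 0.034 after adjustment over the 18. The ratios share subunits and the comparisons share libraries, so the tests are not independent of each other or of the levels above.

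**Figure D3:**
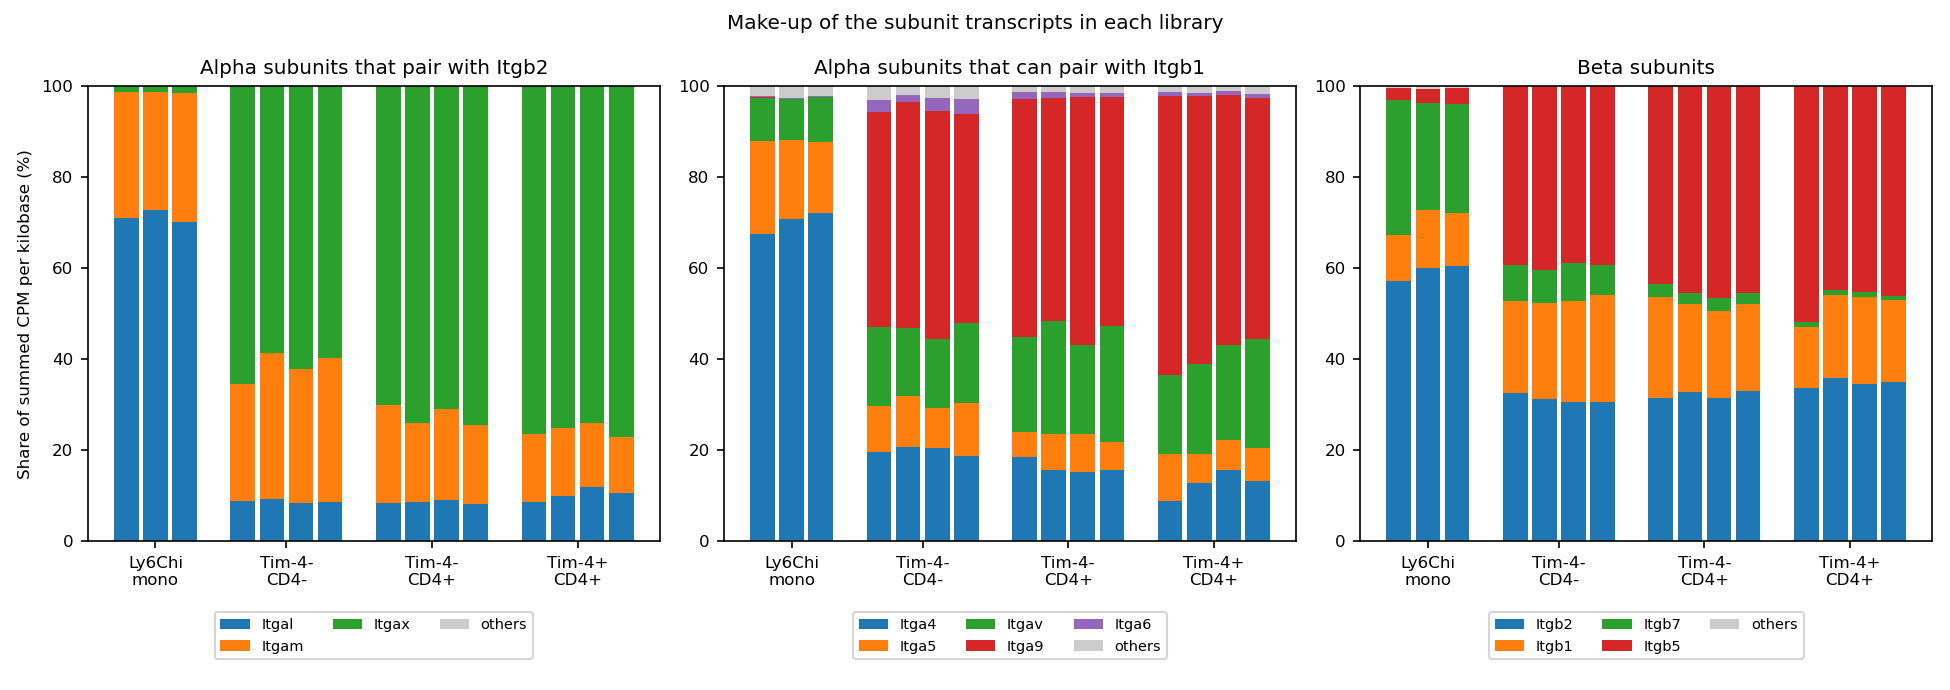
Share (%) of the summed CPM per kilobase within each library (1 bar per library) for the alpha chains of Itgb2, the alpha chains that can pair with Itgb1, and the beta chains. Itgal, Itga4 and Itgb2 take most of the monocyte bars, Itgax, Itga9 and Itgb5 take the widest part of the macrophage bars. The part of Itgam is uncertain, as most of its exon bases are shared with Gm49368.

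Itgb5 encodes beta5, which pairs with alphav to bind vitronectin and serves in the uptake of apoptotic cells. It was at 99.6, 103 and 110 CPM in monocytes, 707, 728, 646 and 667 CPM in Tim-4-CD4-, 740, 769, 836 and 841 CPM in Tim-4-CD4+, and 922, 758, 747 and 745 CPM in Tim-4+CD4+ macrophages. Macrophages were 6.59-, 7.64- and 7.61-fold above monocytes (log2 fold change 2.72 to 2.93, edgeR adjusted p at most 6.1e-13). Tim-4-CD4- libraries lay below all CD4+ libraries, which overlapped, and no macrophage comparison passed: 0.21 ± 0.09, -0.01 ± 0.09 and 0.21 ± 0.09, with adjusted p = 0.14, 0.98 and 0.096. Among beta chains per kilobase, Itgb5 made up 3.11% ± 0.44 in monocytes and 39.4% ± 0.65, 45.1% ± 1.202 and 46.9% ± 3.25 in the macrophages, while Itgb7 went from 25.7% ± 3.49 to 7.56% ± 0.79, 2.68% ± 0.22 and 1.09% ± 0.17.

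Itgav, the alphav chain that pairs with beta5, beta1, beta3 or beta8, was less uniform. It stood at 140, 154 and 160 CPM in monocytes, 264, 205, 201 and 233 CPM in Tim-4-CD4-, 322, 349, 264 and 426 CPM in Tim-4-CD4+, and 162, 266, 294 and 325 CPM in Tim-4+CD4+ macrophages. All macrophage libraries were above the monocytes, and the macrophage populations overlapped, apart from Tim-4-CD4+ against Tim-4-CD4-, whose nearest libraries were at 264.3 and 264.2 CPM. The rise over monocytes was 1.49-, 2.25- and 1.73-fold (0.58 ± 0.20, 1.17 ± 0.20 and 0.79 ± 0.20, edgeR adjusted p = 0.016, 6.5e-05 and 0.0018). Tim-4-CD4+ were 1.51-fold above Tim-4-CD4- macrophages (0.59 ± 0.18, adjusted p = 0.046), a call lost in 10 of 21 alternatives: without monocyte replicate 3, Tim-4-CD4- replicate 2, 3 or 4, Tim-4-CD4+ replicate 1, 2 or 4 or Tim-4+CD4+ replicate 2, and under both replicate blocks (0.47 to 0.69 over all settings, adjusted p up to 0.16). Of 10744 exon bases, 634 lie opposite another annotated gene.

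Itga6 encodes the alpha6 chain of laminin receptors. It was a low transcript: 3.50, 4.86 and 4.09 CPM in monocytes, 32.5, 17.9, 31.7 and 34.5 CPM in Tim-4-CD4-, 20.4, 14.9, 9.14 and 14.6 CPM in Tim-4-CD4+, and 6.55, 9.67, 8.39 and 10.996 CPM in Tim-4+CD4+ macrophages. Macrophages were above monocytes in every library, and neighbouring macrophage populations overlapped, while Tim-4+CD4+ did not overlap Tim-4-CD4-. The rise over monocytes was 7.02-, 3.56- and 2.14-fold (edgeR adjusted p = 1.6e-07, 1.4e-05 and 0.0013). Tim-4+CD4+ were 3.28-fold below Tim-4-CD4- macrophages (-1.71 ± 0.24, adjusted p = 5.5e-05) and Tim-4-CD4+ 1.97-fold below them (-0.98 ± 0.23, adjusted p = 0.012). Itga6 and Itgav, both alpha chains of matrix receptors, gave 7.94, 23.6 and 29.0 Itgav reads per Itga6 read along the macrophage order, against 36.7 in monocytes.

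**Figure D4:**
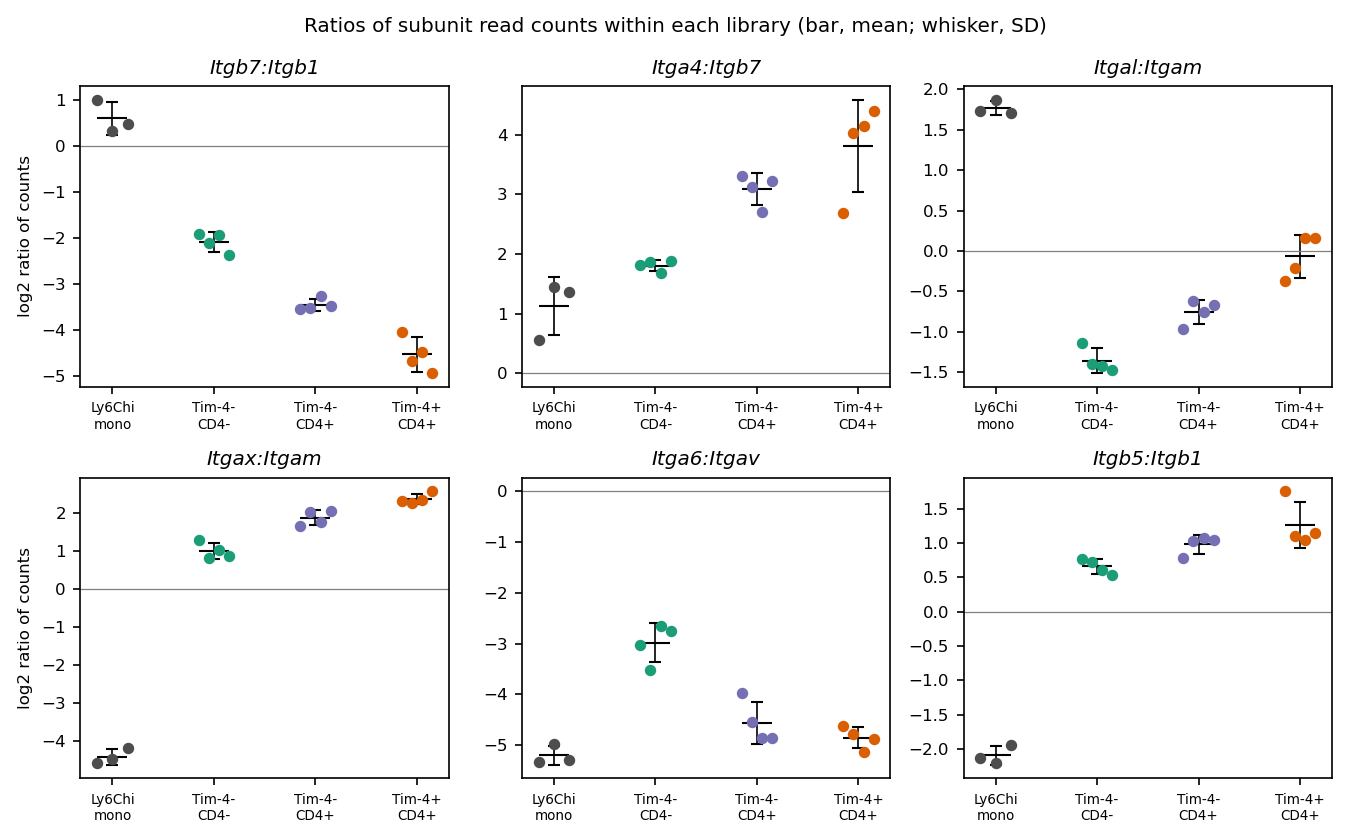
log2 ratio of the read counts of 2 subunits within each library (points), with the mean and SD per population. Itgb7:Itgb1, Itgal:Itgam and Itgax:Itgam separate all 3 macrophage populations; Itga4:Itgb7, Itga6:Itgav and Itgb5:Itgb1 overlap for Tim-4+CD4+ against Tim-4-CD4+.

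Of the other integrin subunits, 14 were tested, and 13, 13 and 12 passed against monocytes, where 65.4%, 69.8% and 70.9% of all genes did (median log2 fold change 2.75, 2.71 and 3.35, or 1.89, 1.64 and 1.42 with the 4 genes at 3 counts or fewer in monocytes set to their bound). Itga9, the alpha9 chain, a receptor for VCAM-1, tenascin and osteopontin that pairs with beta1, was at 0.22 ± 0.13 CPM in monocytes and at 479 ± 32.1, 550 ± 43.9 and 511 ± 72.3 CPM in the macrophages. Its log2 fold changes were 10.97 ± 0.26, 11.16 ± 0.26 and 11.06 ± 0.26 (edgeR adjusted p at most 3.0e-15), and no macrophage comparison passed. Per kilobase, Itga9 took 48.2% ± 1.95, 51.5% ± 2.43 and 57.0% ± 3.79 of the beta1 partner transcripts in macrophages, where Itga4 took 70.1% ± 2.35 in monocytes. Itgb3, the beta3 chain that also pairs with alphav, fell from 26.4 ± 5.27 CPM in monocytes to 1.07 ± 0.42, 1.53 ± 0.74 and 1.42 ± 0.24 CPM (log2 fold change -4.60 to -4.10, adjusted p at most 1.2e-08).

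Between macrophage populations, 3 of these 14 subunits were lower in Tim-4-CD4+ than in Tim-4-CD4- macrophages, 7 differed in Tim-4+CD4+ against Tim-4-CD4- (2 higher, 5 lower), and 0 in Tim-4+CD4+ against Tim-4-CD4+ with edgeR (5 at an unadjusted p under 0.05, and 2 by DESeq2). Of all genes, 10.1% passed in the first of these comparisons (5.53% lower), 23.1% in the second and 3.41% in the last. Itga5, the alpha chain of the fibronectin receptor, was at 66.8 ± 8.71, 47.9 ± 6.30 and 42.6 ± 2.55 CPM along the macrophage order (Tim-4+CD4+ against Tim-4-CD4-, -0.65 ± 0.11, edgeR adjusted p = 0.00045). Itga8, an RGD-binding alpha chain, was at 20.6 ± 5.76, 9.73 ± 1.47 and 6.58 ± 3.01 CPM (-1.65 ± 0.28, adjusted p = 0.00036). Itgae (CD103), the other partner of beta7, was at 5.09, 5.43, 24.7 and 3.21 CPM in the Tim-4-CD4- libraries and averaged 2.91 ± 0.81 and 2.20 ± 0.82 CPM in the CD4+ populations. In the high library, Itgae itself gave 24.7 of the 50.8 CPM of the dendritic cell list, so that sum is not a separate measure. The part of dendritic cells was not tested. Without Tim-4-CD4- replicate 3, the difference of Tim-4-CD4+ from Tim-4-CD4- went from -1.72 (edgeR adjusted p = 0.045) to -0.65 (adjusted p = 0.34). That of Tim-4+CD4+ from Tim-4-CD4- went from -2.12 (adjusted p = 0.0070) to -1.05 (adjusted p = 0.048).

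Talins, kindlins, vinculin and filamin link integrin tails to actin and set their activity, and 31 of 32 genes listed for these roles were tested. Against monocytes 24, 25 and 24 passed, where 65.4%, 69.8% and 70.9% of all genes did, and 16, 18 and 16 of them were lower (28.1%, 30.7% and 31.3% of all genes), with median log2 fold changes of -0.35, -0.39 and -0.39. Flna, which encodes filamin A, a brake on integrin activation, fell from 2889 ± 151.8 CPM in monocytes to 368 ± 43.9, 209 ± 17.6 and 166 ± 23.7 CPM. Src, the kinase downstream of integrins, rose from 0.40 ± 0.17 CPM to 106 ± 21.1, 149.8 ± 31.6 and 151.7 ± 21.6 CPM (log2 fold change 7.95 to 8.46, edgeR adjusted p at most 4.4e-13).

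Along the macrophage order 4, 3 and 9 of the 31 passed, where 10.1%, 3.41% and 23.1% of all genes did (4 lower at the first step, 1 higher and 2 lower at the second, and 2 higher and 7 lower from its start to its end). Parvg, which encodes the leukocyte parvin, had the widest fall, from 31.9 ± 6.86 to 11.5 ± 1.91 and 4.05 ± 0.91 CPM (log2 fold change -1.47 ± 0.18, -1.50 ± 0.18 and -2.97 ± 0.19 in the 3 comparisons, edgeR adjusted p = 4.6e-05, 7.5e-05 and 1.0e-08). Vcl, vinculin, was at 28.2 ± 2.90, 17.6 ± 2.69 and 10.8 ± 2.25 CPM (adjusted p = 0.0053, 0.0082 and 2.7e-06). Zyx, zyxin of focal adhesions, was at 201 ± 9.60 CPM in Tim-4-CD4- and at 109 ± 16.3 and 110 ± 8.49 CPM in the CD4+ populations (Tim-4+CD4+ against Tim-4-CD4-, -0.87 ± 0.10, adjusted p = 9.2e-06). Rasgrp2, an activator of Rap1, was the gene that was higher in Tim-4+CD4+ than in Tim-4-CD4+ macrophages (14.5 ± 2.06 against 9.85 ± 1.54 CPM, adjusted p = 0.020).

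Of 30 genes listed for integrin ligands and matrix proteins, 25 were tested. Against monocytes 17, 14 and 17 of them rose, where 37.3%, 39.1% and 39.5% of all genes did, and 6, 5 and 6 fell, where 28.1%, 30.7% and 31.3% did (median log2 fold change 2.89, 2.60 and 3.21, or 2.20, 2.23 and 2.54 with the 9 genes at 3 counts or fewer in monocytes at their bound). Vcam1, the ligand of alpha4beta1 and alpha9beta1, rose from 0.09 ± 0.05 CPM to 50.9 ± 12.4, 79.6 ± 17.3 and 115 ± 37.7 CPM (log2 fold change 8.98, 9.62 and 10.15, edgeR adjusted p at most 9.5e-12). Lamb1, a laminin chain, was at 0 in the monocytes and at least 123-, 129- and 198-fold higher in the 3 macrophage populations, against a floor of 3 counts over the monocyte libraries. The part of other cells of the digested tissue in the Lamb1 difference was not tested.

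Within the gut, 5 of the 25 ligand genes fell at the first step of the macrophage order (5.53% of all genes), 2 rose at the second (2.07% of all genes), and 3 rose and 7 fell from its start to its end (11.3% and 11.9% of all genes). C3, the source of the iC3b that Itgam and Itgax pairs bind, was at 134 ± 15.5, 65.1 ± 8.58 and 46.6 ± 8.37 CPM (Tim-4+CD4+ against Tim-4-CD4-, -1.53 ± 0.14, edgeR adjusted p = 5.8e-07). Spp1, osteopontin, fell from 4.99 ± 1.04 to 0.55 ± 0.29 and 0.15 ± 0.12 CPM (-5.07 ± 0.63, adjusted p = 1.7e-05). Edil3 and Mfge8 encode secreted bridges between apoptotic cells and alphav integrins, and these were the genes that rose at the second step. Edil3 was at 0.39 ± 0.34, 0.35 ± 0.09 and 7.96 ± 1.41 CPM along the macrophage order, and its step to Tim-4+CD4+ was 4.55 ± 0.44 (adjusted p = 8.7e-06). Mfge8 was at 12.3 ± 1.45, 16.04 ± 1.07 and 34.1 ± 7.54 CPM, with a step of 1.09 ± 0.13 (adjusted p = 8.6e-05), while the chains that bind it, Itgav and Itgb5, gave -0.38 ± 0.18 and -0.01 ± 0.09 (adjusted p = 0.35 and 0.98) in the same comparison.

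For the other 6 members called in Tim-4+CD4+ against Tim-4-CD4- macrophages, the closest patterns over the 12 macrophage libraries were as follows, again with Pearson's r of log2 CPM and as a description. Itga4 was followed most closely by Ankrd44, Tnks and Trps1 (r = 0.98 each), and Itgal by Trpm2, Dpy19l3 and Arhgef5 (0.97, 0.97 and 0.96). Itgam was followed by Reep5, Rbmxl1 and Ywhaz (0.98, 0.97 and 0.97), and Itgax by Dennd2d, Scarb1 and Cwc25 (0.98, 0.98 and 0.97). Itgb1 was followed by Mob1a, Dhdh and Cand1 (0.97 each), and Itga6 by Actr3, Nap1l1 and Fam49b (0.97, 0.97 and 0.96).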

How the data were processed

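RNA was sequenced from 15 pools of sorted mouse cells. The authors trimmed reads with Trimmomatic (0.36 per the labels), aligned them with STAR to GRCm38.p4, kept unique alignments and counted them per gene with HTSeq (0.6.1p1) on GENCODE vM11; the strand setting of the counting is not given in the sources used here. The deposited values used are whole-number counts per gene, not normalized. The 15 normalized columns of the same table were not used.

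Genes were tested with edgeR 4.0.16 (quasi-likelihood test, TMM, filterByExpr, 1 fit over all 15 libraries, no block), with Benjamini-Hochberg adjustment over 15802 genes and a threshold of 0.05. Standard errors were the log2 fold change over the square root of the F statistic. CPM used TMM-scaled library sizes. Exon lengths and coordinates came from GENCODE M21 (GRCm38), and 19421 of 19456 identifiers matched a symbol. Within-library ratios were taken on counts plus 0.5 and compared by exact two-sided permutation tests. The fit was checked on simulated counts.

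The members and gene lists were chosen with earlier results of these data known. Named genes of each list were the up to 4 called genes with the largest absolute log2 fold change per comparison among those at 1 CPM or more on average; a selection of these is named. Genes of likeness had at least 10 CPM. DESeq2 1.42.0 and 20 other settings were tried. A marker gene of the monocyte list, and the sums that include it, are not reported here.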

Additional observations from a re-analysis of the deposited data

Results flagged for a closer look

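In 3 of 48 groups of 4 libraries, 1 library stood further from its nearest neighbour than Dixon's 95% critical ratio allows, where chance gives about 1 in 20. Itga6 was at 17.9 CPM in Tim-4-CD4- replicate 2, against 31.7 to 34.5 CPM in the other Tim-4-CD4- libraries. Itgb5 was at 922 CPM in Tim-4+CD4+ replicate 1, against 745 to 758 CPM in the others of that population. The log2 ratio of Itgb5 to Itgb1 was 1.76 in the same library, against 1.04 to 1.14 in the others. That library was also the lowest of its population for Itga4, Itgav and Itgb1, at 106, 162 and 273 CPM. The others were at 226 to 289, 266 to 325 and 338 to 362 CPM, while its Itgb2 lay within theirs. The effect of this library was not confined to integrins. Over all genes, edgeR called 2203 in Tim-4-CD4+ against Tim-4-CD4- macrophages without it, against 1589 with it. Without this library, Itgav passed in Tim-4+CD4+ against Tim-4-CD4- macrophages (edgeR adjusted p = 0.046). Itgb5 then passed in Tim-4-CD4+ against Tim-4-CD4- (edgeR adjusted p = 0.047).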

How the results depend on the processing

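The counts of members called against monocytes (8, 9 and 10) were the same under all 21 alternatives. Leaving out 1 library gave 3 to 6 members in Tim-4-CD4+ against Tim-4-CD4- macrophages (5 with all), 1 to 3 in Tim-4+CD4+ against Tim-4-CD4+ (3 with all) and 7 to 8 in Tim-4+CD4+ against Tim-4-CD4- (7 with all). In Tim-4+CD4+ against Tim-4-CD4+, 1 member was called with no filter on low counts, with only the 2 populations fitted, and with the replicate block by either numbering; it was Itgb7. The exact permutation tests of ratios that passed after adjustment over the 18 went from 15 to 0 when any macrophage library was left out, where the comparisons that use it cannot go below p = 0.0571 and the adjustment then takes the others past the threshold as well. They also went to 0 in the paired test with the replicate block by title numbers, whose smallest p is 0.125. Deviations from the population mean were at most weakly correlated between same-numbered libraries. The r was -0.12 to 0.13 by title (median -0.05) and -0.09 to 0.16 by description numbers (median 0.02). By description, all pairs of number 4 were at 0.13 to 0.16. Such values cannot tell whether libraries shared mice, and the numbers were not read as pairs in the main fit.

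Values near 0 changed sign. Itgam in Tim-4-CD4- against monocytes was 0.0028 with relative log expression factors, 0.0030 in DESeq2, 0.0151 with only the 2 populations, and -0.053 to 0.049 without 1 library. Itgb1 in the same comparison was 0.0062 with only the 2 populations and -0.051 to 0.036 without 1 library. Itgb5 in Tim-4+CD4+ against Tim-4-CD4+ was 0.0010 with relative log expression factors, 0.00077 in DESeq2 and -0.086 to 0.033 without 1 library. Over all genes, DESeq2 called 904 against 539 by edgeR in Tim-4+CD4+ against Tim-4-CD4+, and edgeR called 1033 against 1589 in Tim-4-CD4+ against Tim-4-CD4- without Tim-4-CD4+ replicate 4. Without Tim-4+CD4+ replicate 1, edgeR called 2203 in Tim-4-CD4+ against Tim-4-CD4-. The causes were not tested.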
